A study of Mus musculus with 14 samples.

Results

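The effect of radiation without drug was followed in hippocampal neurons by comparing 4 sections of irradiated, vehicle-treated mice (Ir-Veh) with 5 sections of unirradiated, vehicle-treated mice (Ctl-Veh). These 9 sections were chosen by the group in their sample names, out of 14 sections in the series, and they held 9358 of its 13602 cells (3886 irradiated and 5472 unirradiated). The remaining sections came from mice given a compound that the labels abbreviate RZ. They were not compared here, but entered the choice of genes, the scaling of counts, the estimate of the spread between sections and the pairing by run. RNA molecules of single genes were counted by MERFISH, an imaging method that reads barcoded probes in place, inside cells outlined on sagittal cryosections of fresh-frozen hemibrains. Irradiated animals are called RT mice and unirradiated ones Con mice in the labels. Nothing used here gives the dose, field or timing of the radiation, the vehicle, the strain or the age. No label says that the sections came from separate animals, so every p-value measures the spread between sections, which may be technical. Radiation is the only labelled difference in treatment between the groups, both of which carry the vehicle. The imaging run, also labelled, differed between the groups for some sections, as set out below.

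Cranial irradiation damages DNA and is known for its effect on the hippocampus, where dividing progenitors of the dentate gyrus are lost and microglia, the resident immune cells, become reactive. Granule cells of the dentate gyrus pass signals to CA3 pyramidal neurons, which project to CA1. Synaptic activity in these neurons switches on immediate early genes and Bdnf, a neurotrophin that supports synaptic strength and is named in the title of the series.

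All cells analysed carried 1 of 3 annotated neuron classes. The dentate class DG_ExN held 2247 Ir-Veh and 3635 Ctl-Veh cells, CA1_ExN held 1037 and 1344, and CA3_ExN held 602 and 493. Fibcd1, a CA1 marker, averaged 6.57 ± 1.49 counts per cell in CA1 (SD over the 9 sections) against 0.287 in DG and 0.133 in CA3. Grm2, a granule cell marker, averaged 2.86 ± 1.14 in DG against 0.117 in CA1, and Iyd, a CA3 marker, 1.05 ± 0.36 in CA3 against 0.172 in DG. Each of these markers was highest in the class it names. Other markers were less selective: Gm2115, a CA1 marker at 5.55 ± 1.26 counts per cell in CA1, averaged 0.987 ± 0.742 in CA3, up to 2.74 in 1 Ctl-Veh section and close to Iyd there, and Gad1, an inhibitory neuron marker that granule cells also express, averaged 1.15 ± 0.42 in DG. Dcn, also listed as a CA1 marker, was scarce and not selective, at 0.0522 ± 0.0307 in CA1 and 0.0558 ± 0.0430 in CA3. The granule cell marker Calb1 was scarce too, at 0.106 ± 0.0817 in DG and 0.0547 in CA1. Microglial Csf1r, Cx3cr1, Aif1 and C1qa each averaged at most 0.0716 counts per cell in any class, and the astrocyte gene Gfap at most 0.30. Counts of the analysed genes, summed per section, ran from 194582 to 413159. Counts per class, cell and volume below are likewise of these genes only, which made up part of the deposited totals. The thinnest class was CA3, with 18364 to 56308 counts from 57 to 152 cells in Ctl-Veh sections and 40681 to 51779 counts from 134 to 185 cells in Ir-Veh sections.

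Sections were imaged in pairs, and the number in a section's name is that of its imaging run. Runs 2 and 12 held 1 section of each group, so that Ir-Veh 2 stood beside Ctl-Veh 2 and Ir-Veh 12 beside Ctl-Veh 12, whereas Ir-Veh 1 and 9 and Ctl-Veh 3, 8 and 11 shared their runs with sections outside the comparison. The distance between sections was taken as the median absolute log2 difference over the genes with a mean of at least 50 counts per section. For DG (118 genes) this distance was 0.164 and 0.242 between the irradiated and unirradiated sections of 1 run. It had a median of 0.428 over 16 pairs of sections of the same group from different runs, and of 0.431 over 18 pairs from different groups and runs. In CA1 the corresponding medians were 0.257, 0.439 and 0.419, and in CA3 0.243, 0.472 and 0.442. An irradiated section was thus closer to the unirradiated section imaged with it than the median pair of sections of 1 group, in each class. The kinds of pairs overlapped in CA1, where the lowest distance of same-group pairs was 0.224 and that of pairs differing in both was 0.214.

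**Figure D1:**
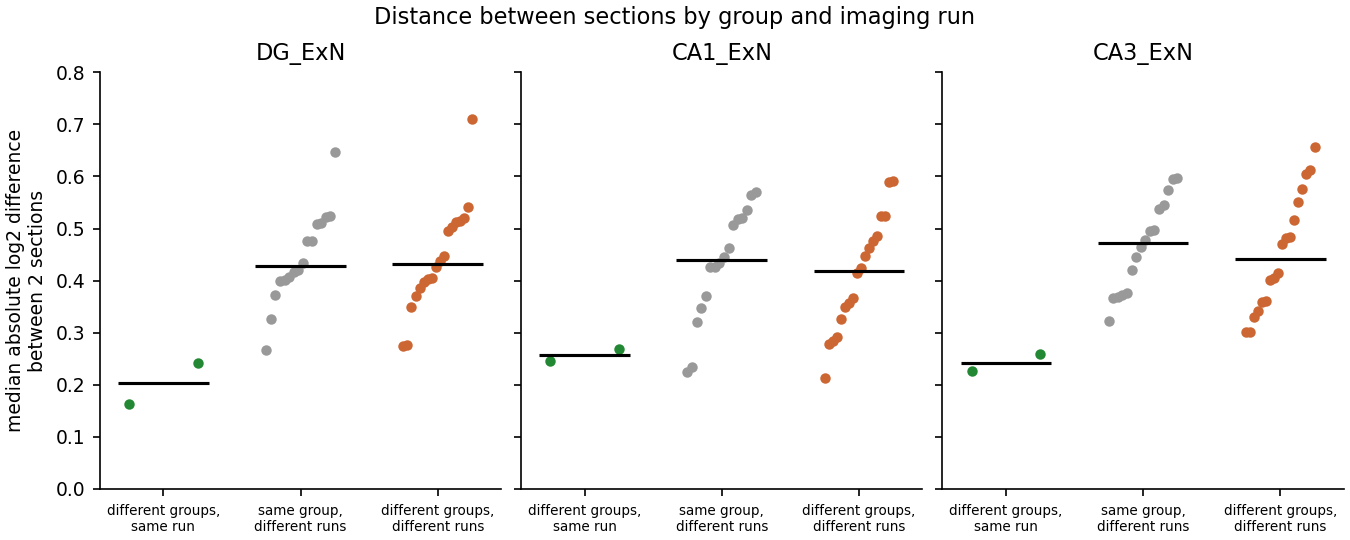
Distance between 2 sections (y axis, median absolute log2 difference of CPM over well-counted genes) by whether the pair shares its treatment group or its imaging run. Each point is 1 pair and bars are medians. Pairs of different groups imaged in the same run lie between 0.164 and 0.269, and the medians of both other kinds lie between 0.419 and 0.472.

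No gene differed between irradiated and unirradiated sections after adjustment in any of the neuron classes. Counts were summed per section within a class and tested with edgeR's quasi-likelihood test, with Benjamini-Hochberg adjustment over all genes tested in the class. In DG, 0 of 252 genes passed an adjusted p of 0.05 (0%), and 4 genes had an unadjusted p under 0.05 (1.59%). In CA1, 0 of 233 passed (0%) and 5 were under 0.05 unadjusted (2.15%). In CA3, 0 of 218 passed (0%) and 4 were under 0.05 unadjusted (1.83%). The smallest adjusted p was 0.999 in each class. Of the genes tested, 134 were higher in irradiated sections in DG, 143 in CA1 and 99 in CA3. DESeq2 on the same sums also called 0 genes, with 5, 5 and 3 genes under an unadjusted 0.05 in DG, CA1 and CA3. The median log2 difference over all tested genes (Ir-Veh minus Ctl-Veh on the log2 CPM scale, as for every difference given here) was 0.020 in DG, 0.055 in CA1 and -0.028 in CA3. Scaled by the number of cells in place of the counts, that median moved to 0.101, -0.171 and -0.084, so shifts of whole lists under about that size depend on the scale.

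These counts do not show that radiation left expression unaltered, and the intervals state what sizes remain possible. The 95% interval of the difference lay wholly within a 2-fold change for 65.1% of DG genes (164 of 252), 61.4% of CA1 genes (143 of 233) and 33.5% of CA3 genes (73 of 218). A change of 1.5-fold either way lay outside the interval for only 18, 15 and 3 genes. The median SE was 0.33, 0.36 and 0.42 log2 units.

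Bdnf stood lower in irradiated than in most unirradiated sections of the dentate gyrus, but the difference did not pass the test. In DG its level was 3451, 3564, 3739 and 3395 CPM (counts scaled to an equal total per section) in Ir-Veh 1, 2, 9 and 12, and 3620.4, 4601, 4746, 4874 and 4659 CPM in Ctl-Veh 2, 3, 8, 11 and 12. Of the unirradiated sections, 4 lay above all irradiated ones, while Ctl-Veh 2 lay within their range. The group means were 3537 ± 152 CPM (SD, n = 4) and 4500.1 ± 502 CPM (SD, n = 5). The log2 difference was -0.35 ± 0.23 (SE; 95% interval -0.83 to 0.13; edgeR unadjusted p = 0.150, adjusted p = 0.999). A two-sided exact permutation test of the mean log2 CPM over the 9 sections, chosen after the data were seen, gave p = 0.0238 in DG, and 0.0714 after adjustment over the 3 classes. Within runs the difference was -0.023 in run 2 and -0.45 in run 12, so run 2 showed almost none.

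CA1 had 1299.5, 1085, 1726 and 1075 CPM of Bdnf in the irradiated sections (in the order of runs 1, 2, 9 and 12) and 1202, 1834, 1631, 1567 and 1456 CPM in the unirradiated ones (runs 2, 3, 8, 11 and 12). The groups overlapped, with Ir-Veh 9 second only to Ctl-Veh 3, and the log2 difference was -0.25 ± 0.28. CA3 had 1942, 1997, 2754 and 1697 CPM in irradiated and 2046, 2774, 3558, 3233 and 2621 CPM in unirradiated sections, a difference of -0.44 ± 0.36 with Ir-Veh 9 again the highest of its group. Exact permutation p-values for these 2 classes were 0.183 and 0.0635, or 0.183 and 0.0952 adjusted over the classes. Within run 12 the differences were -0.43 in CA1 and -0.61 in CA3, and within run 2 they were -0.15 and -0.034. The other measured genes of the Bdnf and CREB pathway were Creb1 and Crebbp, the transcription factor and its coactivator, and the calcium-dependent kinases Camk4, Camk2a and Camk2g. None of the 6 passed in any class (background 0%), and 3 were higher and 3 lower in DG, 4 and 2 in CA1, and 1 and 5 in CA3. Medians of the list were -0.0045, 0.070 and -0.074, and their signs depended on the scaling, since all 6 were lower in CA1 when scaled by cells and 4 of 6 higher in CA3 with the deposited totals. Ntrk2, which encodes the Bdnf receptor, was not analysed here.

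**Figure D2:**
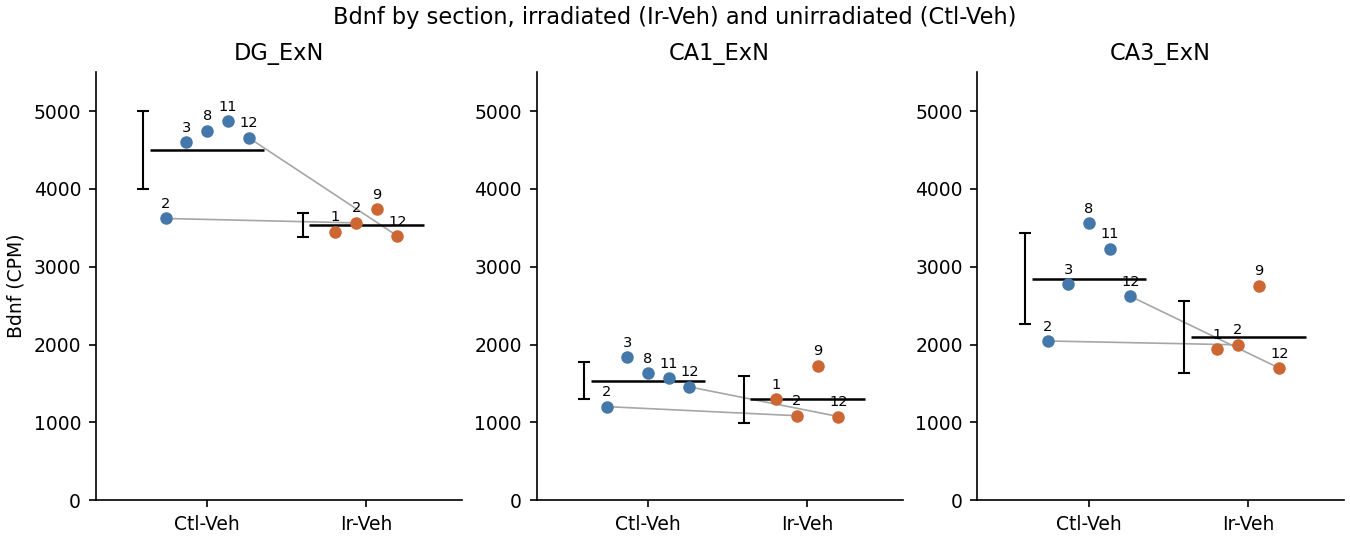
Bdnf in CPM (y axis, from 0) in each section by class, with the imaging run printed at each point. Bars are group means, whiskers are SD (n = 4 Ir-Veh and 5 Ctl-Veh), and grey lines join the sections of runs 2 and 12. In DG the irradiated sections lie between 3395 and 3739 CPM, under all unirradiated sections except that of run 2.

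Immediate early genes report recent activity, and 0 of the 9 measured passed in each class. Arc, whose protein regulates receptor traffic at synapses, had 15935, 19903, 11996 and 13763 CPM in irradiated CA1 and 18585, 9749, 24966, 15642 and 14437 CPM in unirradiated CA1. The lowest and the highest section were both unirradiated (runs 3 and 8), and the difference was -0.12 ± 0.26. In DG it was -0.16 ± 0.36 and in CA3 -0.12 ± 0.33. Egr1, an activity-induced transcription factor, had 16408, 22829, 15899 and 15702 CPM in irradiated CA1 against 18123, 13533, 21384, 17364 and 16014 CPM. Ir-Veh 2 was the highest of all sections and the other irradiated ones lay among the unirradiated, with differences of 0.035 ± 0.22 in CA1, 0.23 ± 0.28 in DG and -0.0034 ± 0.30 in CA3. Atf3, which is induced by stress as well as activity, differed by -0.57 ± 0.33 in CA1, where the unadjusted p was 0.100 and the summed totals were 64 counts in Ir-Veh and 142 in Ctl-Veh. The 9 genes had median differences of -0.089 in DG, 0.035 in CA1 and 0.117 in CA3, and 3, 6 and 5 of them were higher in Ir-Veh. Scaled by cells, their medians were 0.035, -0.159 and 0.048, so the signs in DG and CA1 depended on the scaling.

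Of the glutamate receptor genes and their partners, 0 of 16 passed in each class. In DG 11 were higher in irradiated sections, in CA1 13 and in CA3 10. Among all genes tested, 134 of 252, 143 of 233 and 99 of 218 were higher. The list had median differences of 0.105, 0.140 and 0.071, against 0.020, 0.055 and -0.028 for all genes. Its CA1 median turned to -0.117 when scaled by cells. Grin2a, which encodes an NMDA receptor subunit of mature synapses, was 1 of 2 genes in CA1 whose irradiated and unirradiated sections did not overlap (2 of 233, 0.858%). It stood at 35707, 38909.6, 30648 and 36097 CPM in irradiated CA1 and at 47126, 40326, 41407, 43100.0 and 39767 CPM in unirradiated CA1. All irradiated sections were under all unirradiated ones, by a narrow margin between Ir-Veh 2 and Ctl-Veh 12. The difference was -0.26 ± 0.18 (unadjusted p = 0.169), with -0.28 in run 2 and -0.14 in run 12. Grin2a overlapped in the other classes, with differences of -0.11 ± 0.22 in DG and -0.22 ± 0.34 in CA3.

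The obligatory NMDA subunit gene Grin1 differed by 0.11 ± 0.24 in DG and 0.070 ± 0.21 in CA1. For the AMPA receptor subunit gene Gria1, section levels in DG were 78592, 92105, 55463 and 84338 CPM under radiation and 60947, 61346, 80949, 81018 and 80836 CPM without. The difference of 0.088 ± 0.21 joined 0.60 in run 2 with 0.061 in run 12. Gria2, whose subunit sets the calcium permeability of AMPA receptors, had 32027, 31917, 61045 and 84155 CPM in irradiated and 42942, 41871, 36922, 65306 and 73068 CPM in unirradiated CA1. Sections of runs 1, 2, 3 and 8 were at most 42942 CPM in both groups and those of runs 9, 11 and 12 at least 61045 CPM. Among the compared sections, only those of runs 2 and 12 shared a run. Elsewhere run and section cannot be told apart, and the cause of the split was not tested. The group difference in Gria2 was 0.0071 ± 0.28 in CA1, -0.068 ± 0.28 in DG and 0.026 ± 0.31 in CA3. Dlg4, the postsynaptic scaffold, and Homer1 belonged to the same list and did not pass either.

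Dnm1, encoding the dynamin that pinches off synaptic vesicles, was highest in Ir-Veh 12 in every class. Its CA1 levels were 45156, 40919.7, 37102 and 72330.0 CPM in irradiated sections and 31456, 32988, 40999, 41237 and 40568 CPM in unirradiated ones. Ir-Veh 12 lay far above the rest, while Ir-Veh 2 and 9 lay within the unirradiated range. The difference was 0.38 ± 0.21 in CA1 (unadjusted p = 0.0806), 0.31 ± 0.22 in DG and 0.31 ± 0.27 in CA3, and both shared runs were positive in each class. Without Ir-Veh 12 the Dnm1 difference was 0.166 in CA1, 0.067 in DG and 0.0196 in CA3. That fit kept Ctl-Veh 12, the highest unirradiated section in DG and CA3. Within run 2, which does not hold Ir-Veh 12, the difference was 0.38 in CA1, 0.56 in DG and 0.25 in CA3. Within run 12 it was 0.83, 0.43 and 0.60. Hpca, the neuronal calcium sensor hippocalcin, differed by -0.18 ± 0.20 in CA1 and -0.39 ± 0.33 in CA3. App, the amyloid precursor gene and the most counted of all, ran from 50549.7 to 129597 CPM in irradiated and from 66292 to 131345 CPM in unirradiated DG, with a difference of -0.044 ± 0.27. Its CA1 and CA3 differences were -0.10 ± 0.24 and -0.11 ± 0.33. The list of amyloid and neurodegeneration-linked genes had 0 of 7 called per class and medians of 0.067, 0.140 and 0.102, of which those in CA1 and CA3 turned to -0.097 and -0.019 when scaled by cells. Within it, Apoc1, an apolipoprotein gene, had the smallest p, at 0.0958 in DG with a difference of 0.59 ± 0.34. The 5 measured potassium and HCN channel genes had medians of 0.139 in DG, 0.160 in CA1 and 0.212 in CA3. All 5 were higher in CA1 and in CA3 and 3 in DG, with 0 called, but scaled by cells 4 of the 5 were lower in CA1 and 2 in CA3.

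Of the neuromodulator genes, the dopamine receptor gene Drd1 was among the few whose groups separated in the dentate gyrus. There 3 of 252 DG genes had groups that did not overlap (1.19%): Drd1 was below the unirradiated sections (1 gene, 0.397%), and Car4 and Chodl were above them (2 genes, 0.794%). Drd1 had 1011, 818, 1096 and 527 CPM in irradiated and 1101, 1109, 1230.0, 1467 and 1293 CPM in unirradiated DG. Ir-Veh 12 was the lowest and Ir-Veh 9 lay just under Ctl-Veh 2. The difference was -0.51 ± 0.27 (unadjusted p = 0.0673), from -0.42 in run 2 to -1.27 in run 12. Crhr1, the receptor of corticotropin-releasing hormone, was 1 of 2 genes (with Bgn) that were higher by at least 0.3 in both shared runs and all classes. In DG Crhr1 stood at 1969, 2027, 1357 and 2341 CPM under radiation and 1585, 1322, 1189, 1364 and 1855 CPM without. Irradiated sections of runs 1, 2 and 12 were the 3 highest and that of run 9 lay within the unirradiated range, as it did in the other classes. Its differences were 0.39 ± 0.27 in DG, 0.38 ± 0.28 in CA1 and 0.50 ± 0.30 in CA3, with unadjusted p-values of 0.161, 0.192 and 0.110.

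Crh, which encodes the ligand of that receptor, differed by -1.08 ± 0.52 in CA1, on 19 counts in Ir-Veh and 70 in Ctl-Veh. Htr1f, a serotonin receptor gene, differed by 0.70 ± 0.34 in DG on 79 counts in Ir-Veh and 78 in Ctl-Veh. Over the 17 measured genes of monoamine, acetylcholine and peptide signalling, 0 passed among the 16 tested in DG, the 16 in CA1 and the 14 in CA3. Medians were 0.124, 0.043 and -0.043. Cckbr, a cholecystokinin receptor gene, differed by 0.46 ± 0.35 in DG, where 3 irradiated sections held 295 to 296 CPM and Ir-Veh 2 held 175 CPM.

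Car4, a membrane-bound carbonic anhydrase that buffers pH outside cells, was the better counted of the genes that stood higher in irradiated DG, on 900 counts in Ir-Veh and 898 in Ctl-Veh. Its 4 irradiated DG sections were close together at 2022, 1901, 1926 and 1891 CPM, and the unirradiated ones spread over 859, 1213, 1044, 1563 and 1489.8 CPM. Every irradiated section was above every unirradiated one. The difference was 0.65 ± 0.32 (95% interval -0.0083 to 1.31, unadjusted p = 0.0528), with 1.13 in run 2 and 0.34 in run 12. In CA1 and CA3 the Car4 groups overlapped and differed by 0.31 ± 0.36 and 0.45 ± 0.38. Chodl, a membrane lectin, had 95.9, 105, 98.4 and 171 CPM in irradiated and 75.1, 91.4, 58.02, 29.5 and 65.7 CPM in unirradiated DG, where Ir-Veh 12 was far above its group. That difference of 0.81 ± 0.39 rested on 51 counts in Ir-Veh and 47 in Ctl-Veh. Fst, the secreted activin antagonist follistatin, differed by -0.82 ± 0.36 (unadjusted p = 0.0304) on 65 counts in Ir-Veh and 174 in Ctl-Veh, with 105, 196, 134 and 93.02 CPM under radiation and 367, 225, 278, 184 and 146 CPM without. Ir-Veh 2 lay among the unirradiated sections and the other irradiated ones below them all. The adhesion gene Cdh7 and the sphingolipid enzyme gene Degs2 completed the 10 genes with the smallest p in DG, at 1.04 ± 0.51 and -0.65 ± 0.34.

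**Figure D3:**
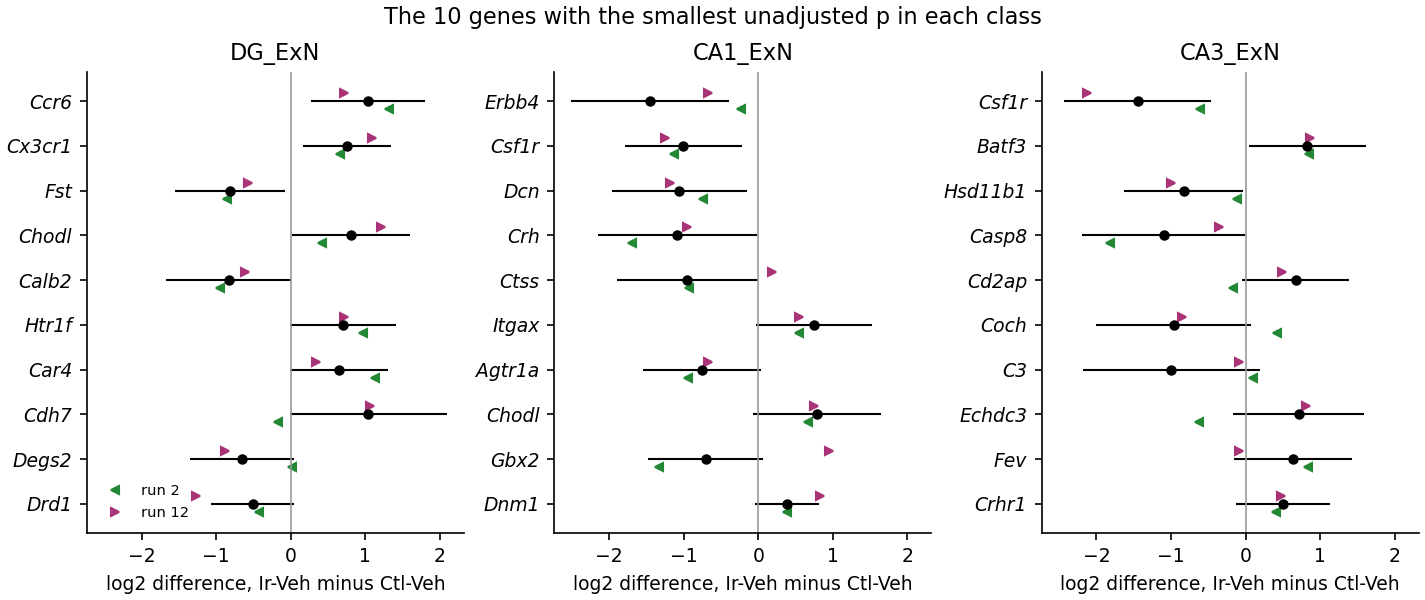
Log2 difference between Ir-Veh and Ctl-Veh (x axis) of the 10 genes with the smallest unadjusted p in each class, as the edgeR estimate with its 95% interval (black) and the difference within run 2 and run 12 (triangles). None passes adjustment (smallest adjusted p 0.999), and for several, such as Gbx2, Coch and Echdc3, the shared runs lie on opposite sides of 0.

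Microglial and immune genes supplied the smallest p-values in DG and CA3, in both directions and at low counts. Csf1r, the growth factor receptor on which microglia depend, was the 1 gene of 218 in CA3 whose groups did not overlap (0.459%). It had 101, 131, 151 and 49.2 CPM in irradiated and 227, 267, 449.8, 177 and 391 CPM in unirradiated CA3. All irradiated sections were below all unirradiated ones, with Ir-Veh 12 the lowest. The difference was -1.45 ± 0.47 (unadjusted p = 0.00605, adjusted p = 0.999), on 20 counts in Ir-Veh and 48 in Ctl-Veh. In CA1 Csf1r had 85.02, 94.4, 100.1 and 151 CPM under radiation and 231, 130.0, 168, 155 and 388 CPM without, with Ir-Veh 12 above Ctl-Veh 3 as the overlap. That difference was -1.004 ± 0.38, and -1.13 and -1.25 within runs 2 and 12. DG gave 218, 209.6, 401 and 388 CPM against 175, 195, 406, 280.2 and 329 CPM for the same gene, which overlapped throughout and differed by 0.11 ± 0.32. Inside the main Leiden cluster of DG that difference was -0.48, and outside it 0.67.

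Cx3cr1, the fractalkine receptor of microglia, stood the other way. In DG it had 227, 363, 464 and 341 CPM in irradiated and 225, 158, 284, 214 and 153 CPM in unirradiated sections, and 3 irradiated sections lay above all unirradiated ones. Its difference was 0.75 ± 0.29 in DG (unadjusted p = 0.0144), 0.44 ± 0.40 in CA1 and 0.98 ± 0.59 in CA3. Over the list of 16 measured microglial genes, 0 passed in any class, and the median difference was 0.112 in DG, 0.028 in CA1 and -0.196 in CA3. The summed level of the list overlapped between the groups in every class. It ran from 5628 to 8155 CPM in irradiated and 4985 to 6724 CPM in unirradiated DG. The ranges were 2636 to 3199 against 2398 to 3165 CPM in CA1 and 3035 to 4886 against 3510 to 5001 CPM in CA3. No defining marker of microglia was at 0. Whether these counts came from the neurons or from processes of cells around them was not tested. In such sums, fewer cells of a type and less RNA per cell cannot be told apart.

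**Figure D4:**
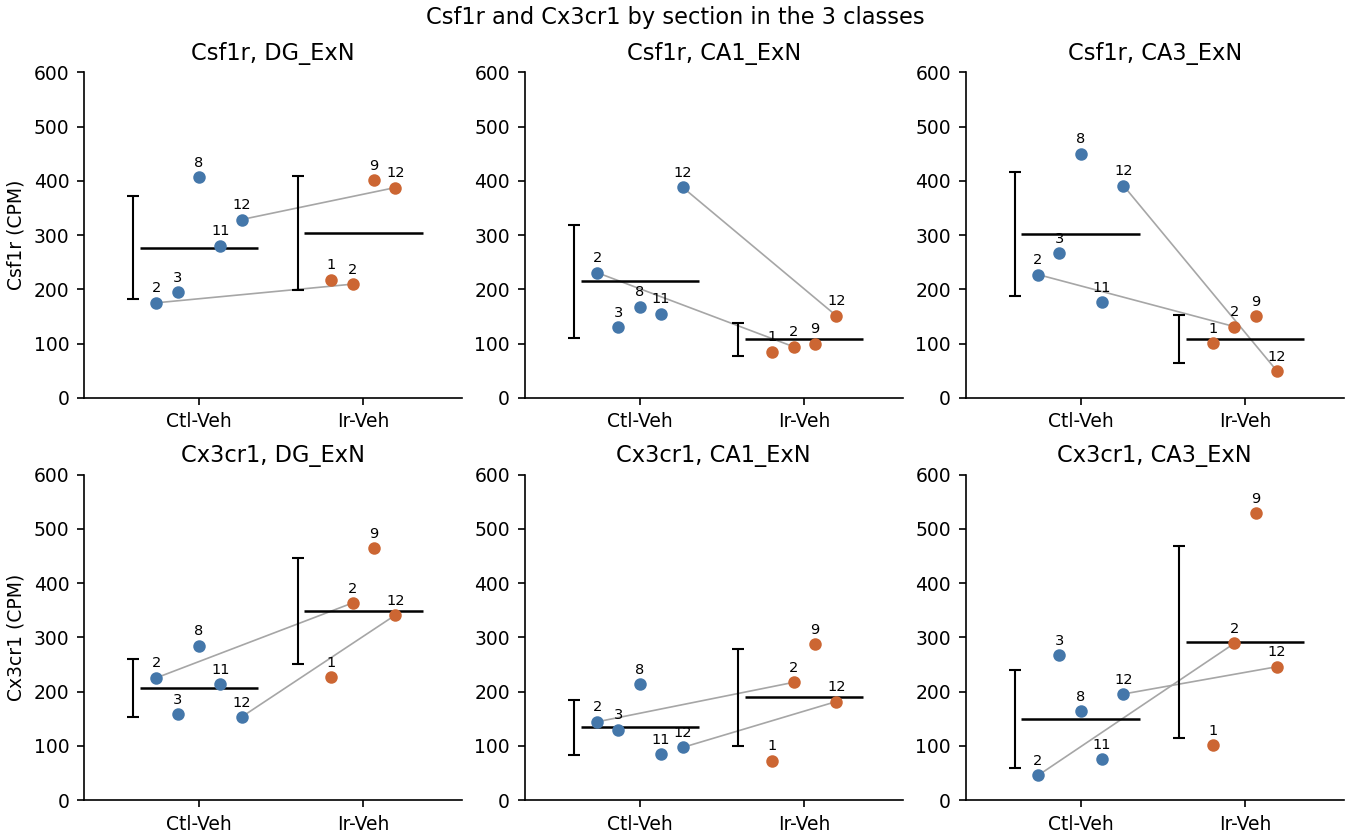
Csf1r (top) and Cx3cr1 (bottom) in CPM (y axis, from 0) in each section by class, with run numbers at the points, means as bars, SD as whiskers (n = 4 Ir-Veh and 5 Ctl-Veh) and grey lines joining runs 2 and 12. Csf1r separates the groups in CA3, from 151 CPM down in Ir-Veh and from 177 CPM up in Ctl-Veh, and overlaps in DG.

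The chemokine receptor gene Ccr6 had the smallest p in DG (0.0104 unadjusted). Its levels were 139, 125.8, 162 and 93.02 CPM in irradiated and 41.7, 60.9, 116, 44.2 and 51.1 CPM in unirradiated DG, on 63 counts in Ir-Veh and 48 in Ctl-Veh. Only Ctl-Veh 8 overlapped the irradiated sections, and the difference was 1.03 ± 0.37. Ctss, a lysosomal protease of microglia, differed by -0.95 ± 0.46 in CA1, with opposite signs in the shared runs (-0.93 and 0.18). Itgax, the integrin subunit CD11c, differed by 0.74 ± 0.38 in CA1, and Batf3, a transcription factor of dendritic cells, by 0.83 ± 0.38 in CA3 on 55 counts in Ir-Veh and 26 in Ctl-Veh. C3, the central complement component, differed by -0.996 ± 0.57 in CA3, where 1 section set the value: Ctl-Veh 3 had 2187 CPM and the other unirradiated sections 286 to 505. Without Ctl-Veh 3 the C3 difference was -0.13 ± 0.45. Of 16 inflammatory and complement genes measured, 0 passed, with medians of 0.187 in DG (10 of 16 higher), 0.165 in CA1 (11 of 14) and 0.086 in CA3 (6 of 10). Scaled by cells, the CA1 median was -0.030.

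The measured cell stress and death genes, Bcl6, Casp8, Ddit3, Atf3 and Egln3, were all lower in irradiated DG and CA3 and 4 of the 5 in CA1, without any passing the test. That count depended on the scaling: in CA3, 4 of the 5 were lower with DESeq2 and 3 of 5 with the plain library size, the deposited totals or the number of cells, and in DG 4 of 5 with the number of cells. Their medians were -0.161, -0.355 and -0.186 against 0.020, 0.055 and -0.028 for all genes, and stayed under 0 with each other scaling tried, at -0.034 to -0.564. Casp8, the initiator caspase of death receptors, had 142, 52.5, 113 and 172 CPM in irradiated and 318, 534, 245, 75.8 and 235 CPM in unirradiated CA3, where Ctl-Veh 11 lay among the irradiated sections. The difference was -1.10 ± 0.53 (unadjusted p = 0.0495) on 22 counts in Ir-Veh and 38 in Ctl-Veh. Cdkn1a, a target of p53 after DNA damage, was not analysed here. Hsd11b1, which regenerates active glucocorticoid, differed by -0.83 ± 0.38 in CA3, with 384, 499, 189 and 295 CPM under radiation and 546, 640.2, 491, 682 and 645 CPM without. Only Ir-Veh 2 reached the unirradiated range, above Ctl-Veh 8 alone.

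Genes of immature neurons and progenitors were few in the count table, and none of 4 passed. Dcx, a microtubule protein of newborn neurons, had 113, 97.8, 281 and 357 CPM in irradiated and 150.2, 177, 145, 169.6 and 204 CPM in unirradiated DG. Ir-Veh 1 and 2 were the lowest of all sections and Ir-Veh 9 and 12 the highest, and the difference was 0.27 ± 0.40 with -0.55 in run 2 and 0.76 in run 12. Calb2, the calretinin gene, which marks immature granule cells and some interneurons, had 139, 105, 112 and 295 CPM against 217, 274, 232, 184 and 460.1 CPM in DG. Irradiated sections of runs 1, 2 and 9 lay under all unirradiated ones, and both sections of run 12 were the highest of their group. Its difference was -0.84 ± 0.41 (unadjusted p = 0.0515) on 66 counts in Ir-Veh and 199 in Ctl-Veh. The list's median was -0.30 in DG, 0.042 in CA1 and -0.310 in CA3 (3 tested). Dcx averaged 0.0471 counts per DG cell in Ir-Veh and 0.0348 in Ctl-Veh, so its levels rest on few molecules in both groups.

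Among astrocyte, endothelial, oligodendrocyte and inhibitory neuron markers, 0 passed. Gfap, the astrocyte filament gene that marks reactive astrocytes, had 1935, 1369.7, 1174 and 1674 CPM in irradiated and 1218, 889.7, 1897, 1143 and 1366 CPM in unirradiated DG, and the groups overlapped with a difference of 0.24 ± 0.28. It differed by 0.027 ± 0.32 in CA1 and -0.13 ± 0.44 in CA3. Aldh1l1, another astrocyte gene, differed by -0.64 ± 0.34 in DG, where Ctl-Veh 2 alone held 601 CPM. The 7 astrocyte markers had medians of -0.195, 0.046 and -0.081, and the endothelial and oligodendrocyte lists medians between -0.125 and 0.134, with 0 called. The 10 inhibitory neuron markers had medians of -0.189 in DG, -0.303 in CA1 and 0.186 in CA3. Erbb4, the neuregulin receptor found mostly on interneurons, had the smallest p in CA1 (0.00906 unadjusted), and its groups did not overlap. It stood at 36.4, 37.7, 25.02 and 30.3 CPM in irradiated and 48.1, 72.2, 163, 84.7 and 60.7 CPM in unirradiated CA1, a difference of -1.45 ± 0.51 that rested on 11 counts in Ir-Veh and 53 in Ctl-Veh. The matrix proteoglycan gene Dcn differed by -1.06 ± 0.44 in CA1 on 32 counts in Ir-Veh and 99 in Ctl-Veh, and Bgn, its relative, by 0.29 ± 0.34 in DG, 0.44 ± 0.38 in CA1 and 0.090 ± 0.58 in CA3.

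Whether radiation acted differently on the classes was tested directly, as the difference between 2 classes within each section. No gene passed: 0 of 232 for DG against CA1 (0%), 0 of 218 for DG against CA3 (0%) and 0 of 216 for CA1 against CA3 (0%), by limma with Benjamini-Hochberg adjustment. At an unadjusted p under 0.05 there were 11 (4.74%), 6 (2.75%) and 7 (3.24%) genes. The closest was Agtr1a, the angiotensin II receptor gene, for DG against CA1, at 1.17 ± 0.25 (SE) with an adjusted p of 0.080. Agtr1a had 170.0, 160.4, 100.1 and 90.8 CPM in irradiated and 327, 274, 189, 169 and 158 CPM in unirradiated CA1, a difference of -0.75 ± 0.38. In DG it had 200.4, 314, 211 and 139.5 CPM and 250.3, 207, 145, 73.7 and 109.5 CPM, a difference of 0.50 ± 0.35. The groups overlapped in both classes. All 4 irradiated CA1 sections lay below the unirradiated mean of 223 CPM. In DG the sections of the groups interleaved, with 3 irradiated ones above the unirradiated mean of 157 CPM. The signs in CA1 and DG were opposite in run 2 (-0.94 and 0.31) and in run 12 (-0.68 and 0.31). Agtr1a counts were low, at 45 counts in Ir-Veh and 115 in Ctl-Veh of CA1. Among the other named genes, Htr1f gave 0.70 ± 0.21 for DG minus CA1 (adjusted p = 0.570), and Csf1r 0.94 ± 0.30 for DG minus CA1 and 1.24 ± 0.39 for DG minus CA3 (adjusted p = 0.611 and 0.972).

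No measure of cell size, counts of the analysed genes or cluster passed the test between irradiated and unirradiated sections. In CA1 the median cell held 347, 388, 265.5 and 248 counts in Ir-Veh 1, 2, 9 and 12, and 327, 331.5, 605, 331 and 390.0 counts in Ctl-Veh 2, 3, 8, 11 and 12. Means were 312 ± 66.5 (SD, n = 4) and 397 ± 119 (SD, n = 5), and a two-sided exact permutation test over sections gave p = 0.254 (0.833 adjusted over 12 cell measures, where 0.00794 is the smallest p the design allows). Ctl-Veh 8 was the highest, and the difference ran opposite ways in run 2 (61.0) and run 12 (-142). Median CA1 cell volume, in a unit the files do not state, was 633 ± 215 under radiation and 815 ± 168 without (exact permutation p = 0.190, 0.833 adjusted). The irradiated section of run 9 had the smallest CA1 cells, at 403, followed by the unirradiated section of run 11, at 541. DG cells held a median of 208 ± 37.1 and 204 ± 40.0 counts, and CA3 cells 286 ± 39.1 and 338 ± 106.

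Counts per volume, which set counts of the analysed genes against cell size, differed little, at 0.530 ± 0.142 and 0.511 ± 0.120 in CA1. The share of CA3 cells in the Leiden cluster that held most of that class was 65.1% ± 8.32 under radiation and 72.6% ± 6.92 without (exact permutation p = 0.230, 0.833 adjusted). It was 53.4% in Ir-Veh 9 and 84.2% in Ctl-Veh 12, and between 65.4% and 73.7% in the remaining sections. The adjusted p of all 12 measures lay between 0.833 and 0.929, and 11 of the 12 had opposite signs in runs 2 and 12.

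**Figure D5:**
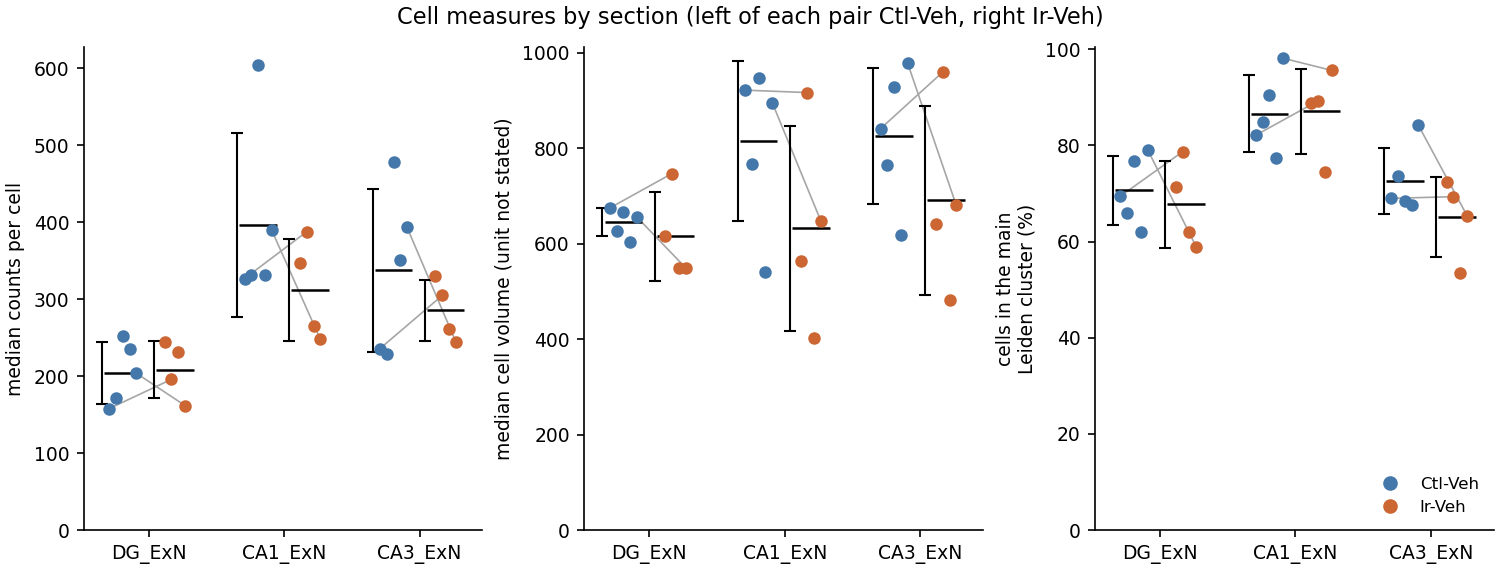
Median counts per cell, median cell volume and share of cells in the main Leiden cluster (y axes, from 0) by section and class, Ctl-Veh in blue and Ir-Veh in orange, with means as bars, SD as whiskers (n = 5 and 4) and grey lines joining runs 2 and 12. The groups overlap in every panel, and the lines often cross.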

How the data were processed

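Per the labels, cells on sagittal sections of fresh-frozen hemibrains were imaged by MERFISH with DAPI and poly-T staining. The deposited values were raw counts of transcripts per segmented cell, not normalized by the authors, for 255 genes that made up 55.9% to 59.2% of each section's deposited total counts. Of these symbols, 254 matched a gene table of assembly GRCm38.p6, used for names only. The class, Leiden cluster, volume and position of each cell were the authors' own, and units of volume and position, software versions, build and cell filters are not given in the sources used here. Genes outside the 255 were not analysed here. Unused per-sample columns numbered 0.

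Counts were summed per section within each class (at least 20 cells), cells never being replicates, and no cell was removed, although 4 compared cells had under 20 counts. No doublet caller was run, because cells were outlined on images. Gene tests used edgeR 4.0.16 in R 4.3.3 (quasi-likelihood, TMM factors, filterByExpr) with all 14 sections in 1 fit on group. Levels are CPM on the TMM-scaled total of the 255 genes. TMM factors ran from 0.812 to 1.25 in DG, 0.888 to 1.16 in CA1 and 0.884 to 1.32 in CA3. Differences between classes used limma 3.58.1 on within-section differences of log2 CPM (prior count 2). The 12 cell measures were compared by exact permutation over all assignments of sections. Scripts were tested on simulated data. Figures used Python 3.11.15 and matplotlib 3.10.9.

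Same-numbered sections deviated from their group means together, with correlations of 0.338 to 0.614 over the 7 runs in DG, 0.316 to 0.523 in CA1 and 0.002 to 0.574 in CA3. The number is the imaging run in the deposited cell table, so sections were paired by run. The alternatives were DESeq2 1.42.0, other library sizes, no filter on low genes, removal of cells under 20 counts, cells inside or outside the main Leiden cluster, the compared groups alone, the run as a block or random effect, runs 2 and 12 alone, and leaving out each section.

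Named genes were the 10 with the smallest p per class, the 5 highest per class, those that differed by at least 0.3 one way in runs 2 and 12 in all classes, the best member of each list, and Bdnf, Arc, Egr1, Gfap and Dcx. Grin2a, Agtr1a in DG, Csf1r in DG, Cx3cr1 in CA1 and CA3, Car4 in CA1 and CA3, and the distances between sections and cells were chosen after their values were seen. Members and gene lists were chosen with earlier results of these data known.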

Additional observations from a re-analysis of the deposited data

Results flagged for a closer look

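Of 192 sets of 4 or 5 sections tested for a section far from the others of its group, 11 were marked (5.73%), and chance marks about 1 in 20. In DG, Ctl-Veh 8 had 116 CPM of Ccr6 against 41.7 to 60.9 CPM in the other unirradiated sections. Ir-Veh 12 had 171 CPM of Chodl against 95.9 to 105 CPM, and Ir-Veh 2 had 573 CPM of Bgn against 246 to 295 CPM. Ir-Veh 2 had 175 CPM of Cckbr against 295 to 296 CPM. For Bdnf the lowest unirradiated section, Ctl-Veh 2, had 3620 CPM against 4601 to 4874 CPM.

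In CA1, Ctl-Veh 11 had 395 CPM of Atf3 against 231 to 269 CPM, Ir-Veh 2 had 22829 CPM of Egr1 against 15702 to 16408 CPM, and the median cell of Ctl-Veh 8 held 605 counts against 327 to 390.0. In CA3, Ctl-Veh 3 had 2187 CPM of C3 against 286 to 505 CPM, Ir-Veh 1 had 101 CPM of Kcnj8, a potassium channel gene, against 396 to 447 CPM, and Ir-Veh 2 had 7908 CPM of Egr1 against 5287 to 5483 CPM. Egr1 was thus highest in Ir-Veh 2 in both CA1 and CA3.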

How the results depend on the processing

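The count of called genes remained 0 in every class and between classes under every alternative, with 1 exception. This was runs 2 and 12 alone with the run as a replicate block, which leaves 1 residual degree of freedom. There 3 of 230 genes tested were called in DG: Aldh1l1 (-1.13), Dnm1 (0.52) and Gria1 (0.36). With all sections and the replicate block, edgeR called 0 of the 252, 233 and 218 genes tested in DG, CA1 and CA3. Under an unadjusted p of 0.05 there were 10, 20 and 4 genes, against 4, 5 and 4 without the block. The smallest adjusted p-values with the block were 0.211, 0.242 and 0.996. Only runs 2 and 12 hold both groups, so the group difference in this fit also rests on those runs. It is not a check separate from runs 2 and 12 alone. The paired differences of Bdnf were -0.24 in DG, -0.29 in CA1 and -0.34 in CA3, with adjusted p of 0.849, 0.833 and 0.996, and over all alternatives its difference stayed negative, from -0.45 to -0.21, -0.70 to -0.13 and -0.62 to -0.26.

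Of 84 named gene and class pairs, 58 kept their sign throughout and 26 did not; the cause was not tested. Under the replicate block, signs turned for Hpca (0.137) and Arc (0.015) in CA1 and Gria2 (-0.208), Arc (0.040), Gfap (0.201) and Egr1 (0.279) in CA3. In runs 2 and 12 alone, they turned for App in DG (0.022), Hpca (0.048) and Dcx (-0.084) in CA1, and Gria2 (-0.185), Arc (0.066), Gfap (0.286) and Egr1 (0.290) in CA3. With the run as a random effect, the values were -0.020 for Dcx in DG, -0.117 for Dcx in CA1, and -0.077 for Gria2 and 0.059 for Egr1 in CA3. Scaled by cells, CA1 gave -0.138 for Gria1, -0.161 for Grin1, -0.198 for Egr1, -0.263 for Gfap and -0.183 for Dcx, and CA3 gave -0.094 for Gria2. Cells outside the main cluster gave 0.042 for App in DG, and 0.022 for Arc and 0.295 for Egr1 in CA3, and those inside it -0.48 for Csf1r in DG and -0.033 for Gfap in CA1. With the compared groups alone, CA1 had -0.010 for Egr1 and -0.023 for Gfap, and CA3 had 0.006 for Egr1. Gria2 in CA1, 0.0071 as reported, was -0.017 with DESeq2, -0.00068 with library size alone, -0.000513 with deposited totals, -0.272 by cells, -0.0049 unfiltered, -0.013 inside and -0.288 outside the main cluster, -0.064 with the compared groups alone, -0.112 with the block, -0.095 with the random effect and -0.201 in runs 2 and 12. Egr1 in CA3, -0.0034 as reported, was 0.019 with DESeq2, 0.043 with library size alone, 0.056 with deposited totals and 0.059 unfiltered.

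Leaving out each section in turn gave ranges that cross 0 in DG for App (-0.245 to 0.152), Gria1 (-0.016 to 0.219), Gria2 (-0.457 to 0.129), Grin1 (-0.062 to 0.297), Bgn (-0.072 to 0.468), Arc (-0.581 to 0.049), Egr1 (-0.0071 to 0.430), Dcx (-0.083 to 0.538), Csf1r (-0.077 to 0.277) and Grin2a (-0.205 to 0.0060). In CA1 they did so for App (-0.237 to 0.118), Hpca (-0.266 to 0.00285), Grin1 (-0.066 to 0.263), Gria2 (-0.276 to 0.240), Arc (-0.258 to 0.102), Egr1 (-0.081 to 0.153), Gfap (-0.083 to 0.192) and Dcx (-0.154 to 0.424). In CA3 they did so for App (-0.235 to 0.097), Gria2 (-0.257 to 0.270), Bgn (-0.225 to 0.497), Arc (-0.284 to 0.027), Egr1 (-0.090 to 0.094), Gfap (-0.416 to 0.196) and Dcx (-0.528 to 0.0097). Among cell measures, so did counts per cell in DG (-7.87 to 19.6), counts per volume in DG (-0.0027 to 0.050), CA1 (-0.024 to 0.069) and CA3 (-0.016 to 0.058), and the main-cluster share in DG (-6.55 to 0.045) and CA1 (-2.40 to 4.63). Leaving out 1 section moved 56 of the 84 differences by over 1.5 times, 30 of them among the 58 that kept their sign. Examples are Grin2a in CA1 (-0.168 without Ctl-Veh 2, -0.173 without Ir-Veh 9), Bdnf in CA1 (-0.133 without Ir-Veh 2), Crhr1 in DG (0.224 without Ir-Veh 12), Cx3cr1 in CA3 (0.480 without Ir-Veh 9), Agtr1a in DG (0.266 without Ir-Veh 2) and Apoc1 in DG (0.288 without Ir-Veh 2). Scaled by cells, the median of all genes and of every gene list was under 0 in CA1. CA3 had both the fewest counts per section and the widest intervals, and how far depth sets that width was not tested.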

Other observations

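The spacing of cells of a class did not pass a test between irradiated and unirradiated sections. The median distance to the fifth nearest cell of the same class, in the unstated unit of the deposited positions, was 15.2 to 28.8 in irradiated and 16.9 to 21.3 in unirradiated DG. Means were 22.7 ± 5.7 (SD, n = 4) and 19.2 ± 1.90 (SD, n = 5), with a two-sided exact permutation p of 0.230 and 0.50 adjusted over the classes. The DG difference was -1.68 in run 2 and 4.99 in run 12, and that in CA3 was -8.05 and -3.55. In CA1 the means were 24.5 ± 3.85 and 24.1 ± 2.33, and in CA3 36.9 ± 4.74 and 42.8 ± 9.63 (exact permutation p = 0.889 and 0.333).

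Genes that mark the neuron classes themselves also had 0 called. The 4 dentate markers had a median difference of -0.011 in DG, the 9 CA1 markers 0.0025 in CA1 and the 3 CA3 markers 0.00039 in CA3. The dentate list was Grm2, Calb1, Adarb2 and Gad1, of which Adarb2 and Gad1 were also among the inhibitory neuron markers. In CA3 cells the CA1 markers had a median of -0.296, with 8 of 9 lower in irradiated sections, as were 119 of all 218 genes tested. The summed level of these markers was 79633 to 116969 CPM in Ir-Veh and 104033 to 167907 CPM in Ctl-Veh. Much of that sum was Hpca, which ran from 48032 to 132861 CPM in single CA3 sections. Hpca was not selective for CA1, with a mean of 82348 CPM in CA3 and 71373 CPM in CA1. Neither was Dcn, at 0.0558 counts per cell in CA3 and 0.0522 in CA1. The 7 perineuronal net and matrix genes had medians of -0.035 in DG, 0.148 in CA1 and -0.367 in CA3. Of the 3 GABA genes, Gad1, which makes GABA and is also expressed by granule cells, differed by 0.50 ± 0.38 in CA3 on 102 counts in Ir-Veh and 60 in Ctl-Veh.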
